A study of Mus musculus with 11 samples.

Results

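The genes examined here (the members) are 9 that T and B lymphocytes use to build their antigen receptors and co-receptors: Cd3d, Cd3e, Cd3g, Cd4, Cd8a, Cd8b1, Cd79a, Cd79b and Ms4a1. They were chosen by symbol, with no measured value in the rule, and all 9 were found among the 20893 genes of the table. RNA was sequenced from whole livers of C57BL/6 mice, 1 library per liver. The 4 control livers had the genotype ROSA26-rtTA-IRES-EGFP; WT, and whether they carried Alb-CRE is not given in the sources used here. The induced livers, 4 taken after 3 days and 3 after 7 days, had the genotype ROSA26-rtTA-IRES-EGFP; tetYAP. All 11 mice ate doxycycline food, the controls for 7 days and the induced mice for 3 or 7 days. By the methods of the study, Alb-CRE opens the floxed rtTA in hepatocytes, so that doxycycline turns on YAP S127A, a form of the coactivator YAP that is no longer held back by its main inhibitory phosphorylation. By that design the lymphocytes are not the cells in which the transgene is driven, and the comparisons ask how their transcripts stood in the tissue 3 and 7 days after the hepatocytes were switched. Ages are not given in the labels used here.

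T cells recognise antigen through a receptor whose signal is carried by the CD3 chains, and CD4 or CD8 decides whether that receptor looks at MHC class II or class I molecules. B cells signal through CD79A and CD79B, the pair that carries the membrane antibody, and display CD20, the product of Ms4a1. In the liver, T cells, natural killer cells and fewer B cells sit in the sinusoids and portal tracts beside a large population of resident macrophages, the Kupffer cells. CD4 is not confined to helper T cells in the mouse: some dendritic cells carry it too.

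The values are eRPKM: exonic reads of a gene divided by its length and by the size of the library, as computed by the authors. They give the share of a library that a gene takes, corrected for its length. In whole tissue, fewer cells of a type and less RNA per cell cannot be told apart from such values. The reads behind each value were recovered from the steps between low values, and the libraries held 1251396 reads on genes (control liver 4) to 5941357 (7-day liver 2). The median library held 3152456.5 reads among controls, 3652719.5 among the 3-day livers and 5356541 among the 7-day livers, and the groups were thus not balanced in depth. The controls and the 3-day group held 2 female and 2 male livers each by Xist and Y-linked reads, and all 3 of the 7-day livers were female.

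Lymphocyte transcripts were scarce in every liver. Of the 99 member values, 9 were at 0 reads, 34 rested on 3 reads or fewer and 10 on more than 20, and the highest was 65. The median member value was 0.758 eRPKM, while the median of the mean levels of all 14244 genes tested was 9.79. A level that would give 3 reads, taken here as the detection limit, ran from 0.111 eRPKM for Ms4a1 in 7-day liver 2 to 2.27 for Cd3g in control liver 4. A value of 0 in control liver 4 thus excludes far less than a value of 0 elsewhere. Intervals and limits on reads treat each read as a separate molecule, which PCR copies are not, and so can understate the counting error. No other source of error is covered by them.

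The genes lie in small neighbourhoods. On the mm9 build with the GENCODE M1 annotation, Cd3g (chr9:44777655-44788514, minus strand), Cd3d (chr9:44789876-44795135, plus strand) and Cd3e (chr9:44806826-44817673, minus strand) share a 40019 bp stretch, and Cd3g and Cd3d start 1362 bp apart on opposite strands. Cd8b1 (chr6:71272830-71287471, plus strand) and Cd8a (chr6:71323421-71329165, plus strand) are 35950 bp apart. Cd4 (chr6:124814710-124838239, minus strand) is on the chromosome of the CD8 pair, 775 bp from Gpr162. Cd79a (chr7:25682400-25687216, plus strand), Cd79b (chr11:106172655-106176076, minus strand) and Ms4a1 (chr19:11324654-11340669, minus strand) stand on chromosomes of their own. No exon of a member overlaps an exon of another gene in this annotation. Whether the authors' unstranded counting mixed in reads of another gene also depends on their gene model. Ms4a1 lies 0 bp from 4930526L06Rik, and the annotated exons cannot show that its count is free of that gene's reads. The gene length behind the eRPKM was 0.863 to 1.04 times the annotated exon length for 8 members and 1.80 times for Ms4a1. The level of Ms4a1 relative to the other genes therefore depends on the authors' gene model, which is not given in the sources used here.

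Promoter sequences were taken from RefSeq (GRCm38.p6, 250 bases before to 50 after the start), which held 5 of the members: Cd3d, Cd3e, Cd3g, Cd8a and Cd79a. Cd4, Cd8b1, Cd79b and Ms4a1 had no entry. Windows of the most abundant T cell gene of the set in controls and of a B cell receptor gene are printed, with matches to the E-box CAGGTG, read on either strand, in capitals. The windows are Cd3d (chr9:44981536-44981835, plus strand) and Cd79a (chr7:24897247-24897546, plus strand).
Cd3d: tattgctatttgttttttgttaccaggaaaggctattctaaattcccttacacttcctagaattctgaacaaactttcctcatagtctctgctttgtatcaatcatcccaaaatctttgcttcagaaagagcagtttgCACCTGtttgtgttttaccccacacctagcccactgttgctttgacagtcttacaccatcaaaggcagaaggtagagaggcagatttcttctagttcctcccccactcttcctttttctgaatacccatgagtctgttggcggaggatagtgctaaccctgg
Cd79a: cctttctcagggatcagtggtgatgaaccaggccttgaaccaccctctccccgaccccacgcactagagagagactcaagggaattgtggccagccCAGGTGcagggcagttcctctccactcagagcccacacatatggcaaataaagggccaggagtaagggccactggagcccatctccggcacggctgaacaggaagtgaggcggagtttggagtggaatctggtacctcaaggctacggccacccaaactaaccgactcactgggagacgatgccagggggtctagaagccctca
The E-box letters were present in 4 of the 5 member promoters (Cd3d, Cd3e, Cd3g and Cd79a), and 20.2% of the 32851 promoters of this length hold them. The TEAD letters GGAATG were in none of the 5 (14.7% of all promoters), nor were the octamer ATGCAAAT (1.74%) or the ETS letters CCGGAA (14.9%), each searched on both strands. These matches are a description of the letters in the window.

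After 3 days of YAP induction none of the 9 genes was called, and after 7 days Cd4 alone among them was, at a level above every control and every 3-day liver. Of all genes tested, 50.0% did not overlap between 7-day and control livers, and 45.1% between 7-day and 3-day livers. The CD3, CD8 and CD79 chains and Ms4a1 did not pass the test at 7 days. The comparisons were made in limma with log2(eRPKM + 0.5) and a common fit of the 11 livers, and a gene was called at an adjusted p under 0.01 (Benjamini-Hochberg over the 14244 genes tested) and an absolute log2 fold change above 0.5. All 9 members passed the filter of 0.5 eRPKM in at least 3 libraries. At 3 days against control 0 of the 9 were called, where 0.0421% of all genes tested were. Limma gave 3 members an unadjusted p under 0.05 there (Cd3d, Cd8b1 and Cd79a), as it did 12.1% of all genes tested, and limma-voom on the recovered reads also called 0. In the 7-day livers against control 1 of 9 was called, against 23.8% of all genes, or 18.0% counting the higher ones alone. Between 3 and 7 days 1 of 9 was called, against 19.3% of all genes, or 14.0% counting the higher ones alone. Both comparisons of the 7-day livers use the same 3 libraries, and those with control share the 4 control livers.

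**Figure D1:**
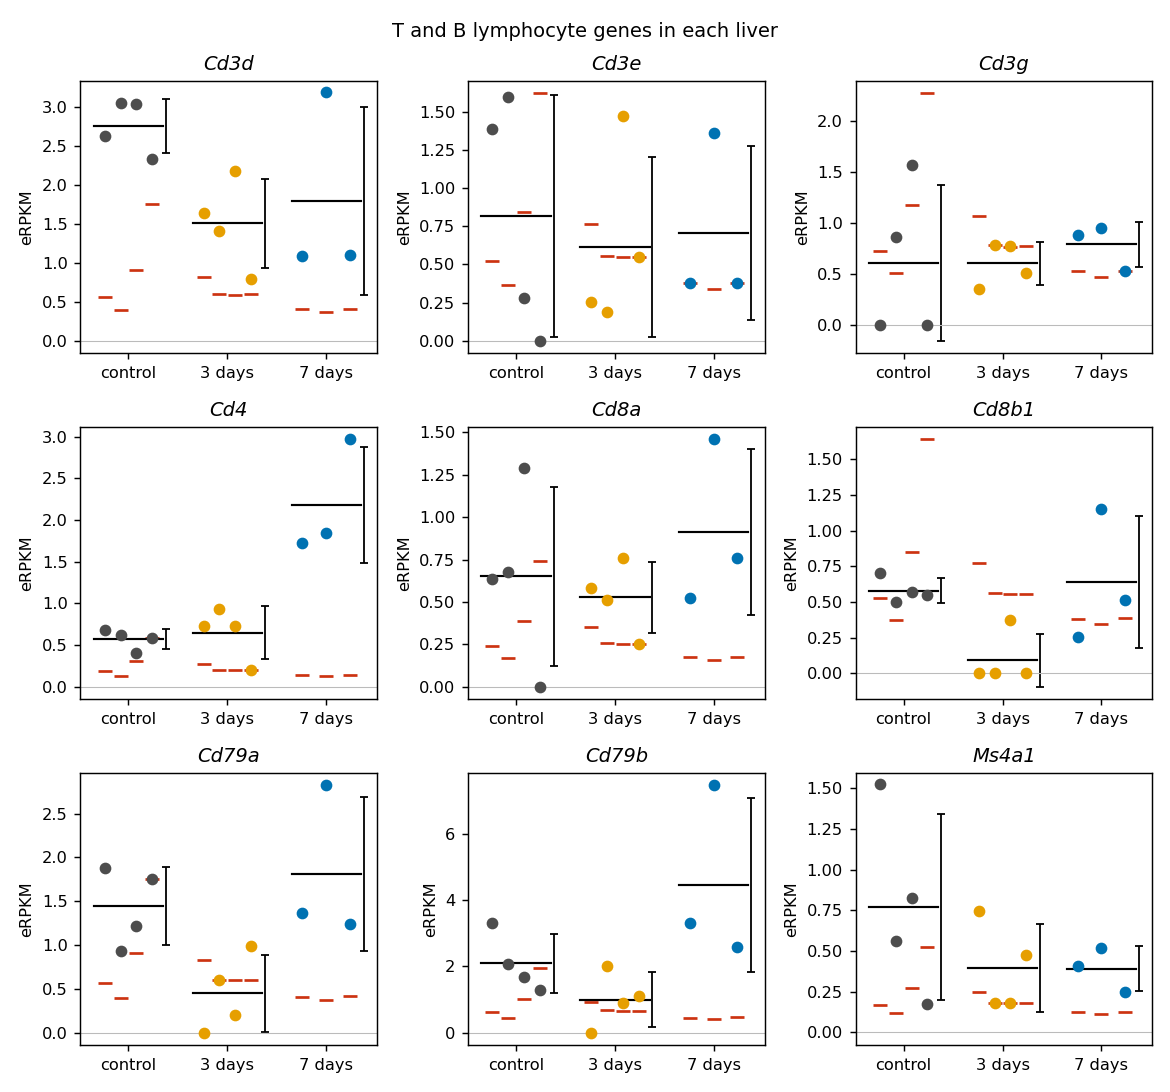
eRPKM of each of the 9 genes (y axes, linear, scaled per gene) in the control, 3-day and 7-day livers, 1 point per liver, with black lines for group means, error bars for SD and red dashes for the value that 3 reads would give in that liver. The 3 Cd4 points at 7 days, from 1.72 to 2.97, lie above all other livers, while most other panels hold points at or below the red dashes.

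Cd4 gave the clearest difference. In controls 1 to 4 its level was 0.686, 0.618, 0.404 and 0.583 eRPKM, and in the 3-day livers 0.729, 0.938, 0.726 and 0.198. In the 7-day livers it was 1.72, 1.84 and 2.97. The 7-day livers did not overlap with either other group. Of the 3-day livers, 3 stood above every control and 1 below every control. The group means, in the same order, were 0.573 ± 0.120 (SD, n = 4), 0.648 ± 0.316 (SD, n = 4) and 2.18 ± 0.691 (SD, n = 3). On the log2(eRPKM + 0.5) scale, where the added 0.5 shrinks the change of a low gene, Cd4 rose by 1.30 at 7 days against control (SE 0.29, 95% interval 0.66 to 1.93, adjusted p = 0.00402, limma). Against the 3-day livers it rose by 1.24 (SE 0.29, 95% interval 0.61 to 1.88, adjusted p = 0.00644, limma). At 3 days against control the difference was 0.06 (95% interval -0.53 to 0.64). The exact two-sided permutation test, which doubled the smaller tail, gave p = 0.0571 for both 7-day comparisons. With that doubling, 0.0571 is the smallest p for 4 livers against 3, so the test could not pass 0.05.

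The reads behind these values were 11, 14, 4 and 3 in controls, 8, 14, 11 and 3 at 3 days and 38, 45 and 65 at 7 days. The 7-day livers thus held 148 Cd4 reads, more than of any other member, the next being Cd79b with 94. Scaled to 1000000 reads on genes (RPM) this made 7.09, 7.57 and 12.2 in the 7-day livers, with exact Poisson 95% intervals of 5.02 to 9.74, 5.52 to 10.1 and 9.44 to 15.6. The highest of the other livers, 3-day liver 2, stood at 3.86 RPM (interval 2.11 to 6.48). The median log2 fold change of all genes tested was 0.26 at 7 days against control under the deposited scaling, and relative to it Cd4 was 1.04 higher. With median-ratio size factors that median was 0.03 and Cd4 stood at 1.10 (adjusted p = 0.0109, limma), and with quantile normalization Cd4 stood at 0.80 (adjusted p = 0.0439, limma). The adjusted p at 7 days against control ran from 0.00216 to 0.0439 over the alternatives, with the log2 fold change between 0.80 and 1.78. Without 7-day liver 3, the highest, it was 1.10 (adjusted p = 0.0281, limma), and without control liver 3, the lowest control, 1.22 (adjusted p = 0.0127, limma), and neither passed 0.01. Among female livers alone, 2 controls against 3, it was 1.38 (adjusted p = 0.0231, limma).

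The rise of Cd4 against the 3-day livers was called in fewer of the alternatives. Its log2 fold change ran from 0.62 to 1.84 and its adjusted p from 0.00337 to 0.118 (limma). With quantile normalization it was 0.62 (adjusted p = 0.118, limma) and with median-ratio size factors 1.06 (adjusted p = 0.0147, limma). With only the 3-day and 7-day livers in the fit the adjusted p was 0.0162, and with no filter on low genes 0.0102 (limma). The call was also lost without any one of 7-day livers 1, 2 and 3 (adjusted p = 0.0142, 0.0155 and 0.0409, limma) and without 3-day liver 1 or 4 (adjusted p = 0.0124 and 0.0171, limma).

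By summed level, the Kupffer cell genes and the monocyte and macrophage genes stood higher in the same 7-day livers, and the dendritic cell genes did not. Of the 7 Kupffer cell genes tested, 5 were called higher at 7 days against control, among them Marco, a scavenger receptor (log2 fold change 3.47), and Timd4, which binds dying cells (2.84). The list summed to 292 to 390 eRPKM in control livers, to 255 to 418 in 3-day livers and to 722 to 743 in 7-day livers. Of 10 monocyte and macrophage genes 6 were called higher, with sums of 124 to 209, 138 to 254 and 455 to 522. Of 9 dendritic cell genes 0 were called, with sums of 109 to 142, 110 to 143 and 97.5 to 131, mostly from Bst2. None of the 3 lists had a gene at 0 in every liver. The part of these cells in the Cd4 result was not tested. Per kilobase, Cd4 stood at 0.248 to 0.749 times the mean of the CD3 chains in controls, at 0.320 to 1.18 times at 3 days and at 1.001 to 4.42 times at 7 days.

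The CD3 chains gave no call in any comparison. Cd3d, the delta chain and the highest T cell gene of the set in controls, stood at 2.62, 3.05, 3.03 and 2.33 eRPKM in controls. In the 3-day livers it was at 1.64, 1.41, 2.18 and 0.793, every value below the lowest control. At 7 days it was at 1.09, 3.19 and 1.10, with liver 2 above all controls and the other two below them. The log2 fold change was -0.74 at 3 days (SE 0.31, 95% interval -1.42 to -0.06, adjusted p = 0.369, limma) and -0.62 at 7 days (SE 0.34, 95% interval -1.36 to 0.11, adjusted p = 0.167, limma). The exact two-sided permutation test gave p = 0.0286 at 3 days, the smallest that 4 against 4 allow, and 27 such tests were run on the members. The Cd3d groups at 3 days and in controls did not overlap, as was so for 5.64% of all genes tested. With quantile normalization Cd3d was called lower at 7 days (-1.19, adjusted p = 0.00374, limma), and without 7-day liver 2 its log2 fold change was -1.03 (adjusted p = 0.0283, limma).

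Cd3e, the epsilon chain that partners both other CD3 chains, spread over the whole range in each group. Its values were 1.39, 1.60, 0.281 and 0 in controls, 0.254, 0.186, 1.47 and 0.551 at 3 days and 0.378, 1.36 and 0.382 at 7 days. The 0 in control liver 4 allows a level of up to 1.62 eRPKM. The log2 fold change at 7 days against control was 0.02, with a 95% interval of -1.13 to 1.17, so changes of up to 2.24-fold in level plus 0.5 eRPKM were within the error. Cd3g, the gamma chain, had 0, 0.862, 1.58 and 0 in controls, 0.356, 0.784, 0.773 and 0.515 at 3 days and 0.885, 0.957 and 0.536 at 7 days. No Cd3g value rested on more than 6 reads, and the zeros in controls 1 and 4 allow up to 0.730 and 2.27 eRPKM. Its log2 fold change at 7 days was 0.48 (95% interval -0.51 to 1.47). Summed, the CD3 chains had 22, 41, 15 and 4 reads in controls, 8, 11, 22 and 9 at 3 days and 16, 44 and 14 at 7 days. In RPM this made 5.63 ± 1.79 (SD, n = 4), 3.62 ± 1.60 (SD, n = 4) and 4.34 ± 2.66 (SD, n = 3), with the groups overlapping.

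The CD8 chains gave no call either. Cd8a, the alpha chain, which also forms a homodimer, stood at 0.636, 0.676, 1.29 and 0 eRPKM in controls, 0.582, 0.513, 0.758 and 0.253 at 3 days and 0.521, 1.46 and 0.759 at 7 days. The 3 groups overlapped, and the log2 fold changes were -0.05 at 3 days (95% interval -0.85 to 0.74) and 0.38 at 7 days (95% interval -0.48 to 1.24). The 0 in control liver 4 allows up to 0.743. Cd8b1, the beta chain found on conventional cytotoxic T cells, was at 0.703, 0.498, 0.569 and 0.548 in controls, and at 0, 0, 0.372 and 0 at 3 days. In the 7-day livers it was at 0.256, 1.15 and 0.516. The 3-day livers held 2 reads in all and the controls 11, and the zeros allow up to 0.772, 0.567 and 0.559 eRPKM, which reaches into the control range in each case. These limits hold for each liver alone and do not cover the summed reads of a group. The median library was larger at 3 days (3652719.5 reads) than in controls (3152456.5). Whether counting error covers the gap between 2 and 11 reads was not tested. The 3-day and control livers did not overlap (p = 0.0286 by the exact permutation test, its lower limit), as was so for 5.64% of all genes tested. The log2 difference of -0.91 (SE 0.28, adjusted p = 0.210, limma) did not pass the limma test. At 7 days against 3 days it was 0.91 (SE 0.31, adjusted p = 0.0351, limma), and without 7-day liver 2 it was 0.61 (adjusted p = 0.150, limma).

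By group mean the CD79 chains were lowest at 3 days and highest at 7 days, and neither step was called. Cd79a, the alpha chain of the B cell receptor complex, stood at 1.88, 0.930, 1.21 and 1.75 eRPKM in controls and at 0, 0.605, 0.199 and 0.993 at 3 days. At 7 days it was at 1.36, 2.83 and 1.24. Three-day liver 4 reached into the control range, and no 3-day liver reached the 7-day range. Cd79b, the beta chain, stood at 3.33, 2.06, 1.68 and 1.30 in controls, 0, 2.01, 0.880 and 1.10 at 3 days and 3.33, 7.49 and 2.59 at 7 days. Here too the 3-day livers overlapped with the controls and not with the 7-day livers. In 3-day liver 1 both chains had 0 reads, which allows up to 0.824 eRPKM of Cd79a and 0.913 of Cd79b.

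At 3 days against control the log2 fold changes were -1.13 for Cd79a (SE 0.36, adjusted p = 0.214, limma) and -0.95 for Cd79b (SE 0.46, adjusted p = 0.442, limma). Against control at 7 days they were 0.21 (SE 0.39, adjusted p = 0.690, limma) and 0.87 (SE 0.50, adjusted p = 0.189, limma). Between 3 and 7 days they were 1.34 for Cd79a (SE 0.39, 95% interval 0.51 to 2.18, adjusted p = 0.0177, limma) and 1.82 for Cd79b (SE 0.50, 95% interval 0.74 to 2.90, adjusted p = 0.0141, limma). Both missed 0.01, and with Cd4 and Cd8b1 they made 4 of 9 members under 0.05 at any fold change, where 35.7% of all genes tested were. Without 7-day liver 2 the adjusted p rose to 0.0843 for Cd79a and 0.0742 for Cd79b (limma). Without 3-day liver 2 Cd79b was called (2.14, adjusted p = 0.00740, limma), and without 3-day liver 4 Cd79a was (1.60, adjusted p = 0.00884, limma). The groups did not overlap for 3 members at 7 days against 3 days (Cd4, Cd79a and Cd79b), a separation that 45.1% of all genes tested showed. They did not overlap for 1 at 7 days against control (Cd4), where 50.0% did, and for 2 at 3 days against control (Cd3d and Cd8b1), where 5.64% did.

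Ms4a1, whose product CD20 marks B cells from the pre-B stage until they become plasma cells, did not follow the CD79 chains. It stood at 1.53, 0.561, 0.824 and 0.176 eRPKM in controls, 0.744, 0.182, 0.180 and 0.479 at 3 days and 0.411, 0.519 and 0.249 at 7 days. The groups overlapped, and the log2 fold changes were -0.44 at 3 days (95% interval -1.17 to 0.28) and -0.41 at 7 days (95% interval -1.19 to 0.37). The CD79 chains together had 4.56 ± 1.42 RPM (SD, n = 4) in controls, 1.85 ± 1.48 (SD, n = 4) in 3-day livers and 7.999 ± 4.47 (SD, n = 3) in 7-day livers, and Ms4a1 had 3.50 ± 2.58, 1.80 ± 1.23 and 1.78 ± 0.618 in the same groups. The difference between these B cell genes was not tested.

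**Figure D2:**
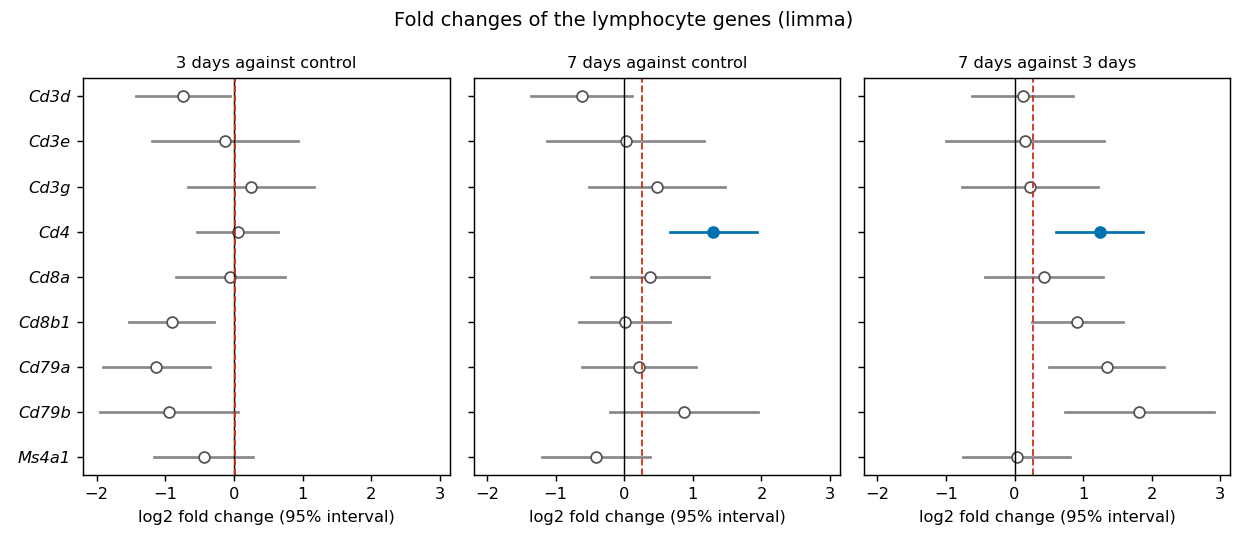
Log2 fold change of each gene (x axis, on log2 of eRPKM plus 0.5) with its 95% interval from limma, in the 3 comparisons. Filled blue points are the calls, Cd4 at 1.30 and 1.24; the red dashed line is the median of all genes tested, 0.02, 0.26 and 0.26 from left to right.

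By mean level per kilobase, Cd3d led in controls (2.76 eRPKM), followed by Cd79b (2.09), Cd79a (1.44), Cd3e (0.816), Ms4a1 (0.772), Cd8a (0.650), Cd3g (0.609), Cd8b1 (0.580) and Cd4 (0.573). After 3 days the order was Cd3d (1.51), Cd79b (0.997), Cd4 (0.648), Cd3e (0.615), Cd3g (0.607), Cd8a (0.526), Cd79a (0.449), Ms4a1 (0.396) and Cd8b1 (0.0931). After 7 days it was Cd79b (4.47), Cd4 (2.18), Cd79a (1.81), Cd3d (1.79), Cd8a (0.913), Cd3g (0.793), Cd3e (0.708), Cd8b1 (0.641) and Ms4a1 (0.393). Cd4 was the 9th of the 9 in controls and the 2nd at 7 days. In all 3 orders each gene overlapped with its neighbours over the livers, so no step between neighbours exceeded the spread.

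Seven-day liver 2 held 174 of the 306 reads of the 8 members other than Cd4 at that time. It was the highest of the 3 livers for 8 of the 9 members, Cd4 being the exception, and for 47.6% of all genes tested. Together these 8 members had 12.9 and 11.9 RPM in 7-day livers 1 and 3 (exact Poisson 95% intervals 10.02 to 16.3 and 9.11 to 15.2) and 29.3 in liver 2 (25.1 to 33.98). The range was 8.79 to 22.3 in control livers and 8.15 to 11.1 in 3-day livers. Seven-day livers 1 and 3 thus lay inside the control range only through control liver 4 (8.79, 11 reads, interval 4.39 to 15.7). They lay below the other controls, at 16.7 to 22.3, and 7-day liver 2 lay above every control. This liver bears the suffix MF in the table, which is not explained in the sources used here and is shared by 3-day livers 1 and 4. Without it the members' log2 fold changes at 7 days against control ran from -1.03 (Cd3d) to 1.38 (Cd4), with Cd4 still called (adjusted p = 0.00997, limma).

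**Figure D3:**
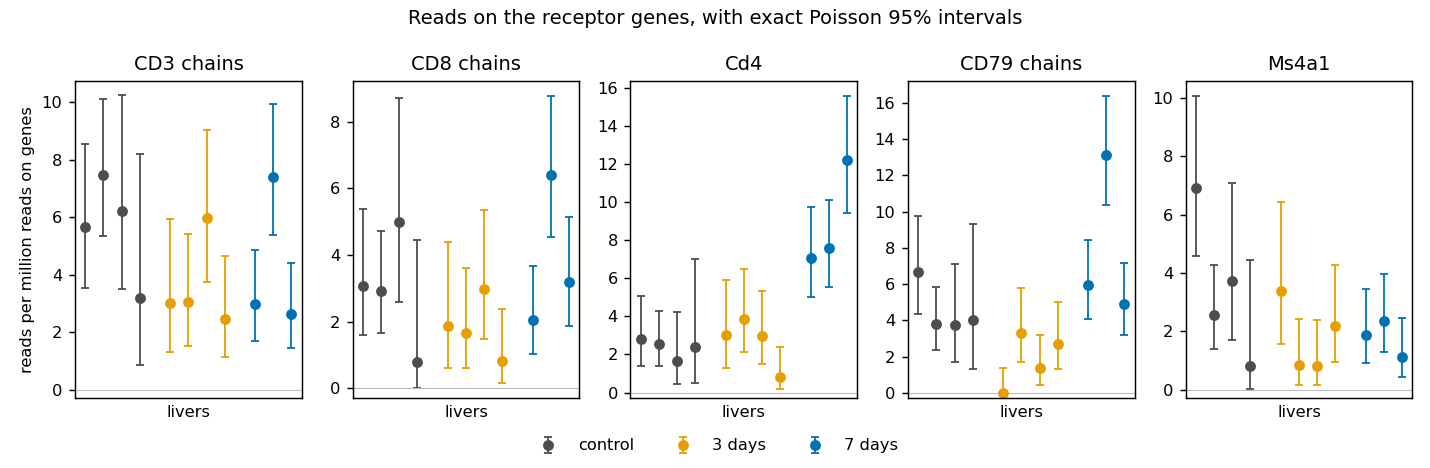
Reads per 1000000 reads on genes (RPM, y axes, linear) on the CD3 chains, the CD8 chains, Cd4, the CD79 chains and Ms4a1, 1 point per liver in order of replicate within each group, with exact Poisson 95% intervals of the counts. The middle 7-day point, liver 2, stands highest of its group in every panel but Cd4, where liver 3 is at 12.2.

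The median log2 fold change of the 9 members was -0.44 at 3 days against control, beside 0.02 for all genes tested. It was 0.21 at 7 days against control, beside 0.26, and 0.43 at 7 days against 3 days, beside 0.26. At 3 days 2 of the 9 values were above 0, at 7 days 7 were, and between 3 and 7 days 9 were, where 52.3%, 64.0% and 64.7% of all genes tested were above 0.

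The wider lymphocyte programme was read from lists of other genes. Of 28 T cell receptor and identity genes in the table, 19 could be tested. At 7 days 2 were called higher and 1 lower, with a median log2 fold change of 0.16. Icos, an inducible costimulator, rose by 2.13 (SE 0.55, adjusted p = 0.00838, limma), from 0 to 2.49 eRPKM in controls to 4.94 to 9.32. Lcp2, the adaptor SLP-76 that myeloid cells also use, rose by 1.73 (SE 0.31, adjusted p = 0.000932, limma), and its exons overlap those of 4930469K13Rik on the other strand. Zap70, the kinase recruited to phosphorylated CD3 and zeta chains, fell by 3.00 (SE 0.41, adjusted p = 0.000142, limma). Control livers ran from 4.99 to 11.5 eRPKM, above every CD3 chain, 3-day livers from 2.85 to 11.4 and 7-day livers from 0.312 to 0.773. Of the most abundant genes with no call, Cd247, the zeta chain, stood at 5.06 eRPKM in controls and 5.34 at 7 days (0.16, adjusted p = 0.709, limma), with exons that overlap Pou2f1 and Gm16565. Tcf7, a transcription factor of naive T cells, stood at 3.95 and 1.66 (-1.04, adjusted p = 0.0151, limma).

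Of 14 cytotoxic and natural killer genes tested 0 were called at 7 days or at 3 days, with a median of 0.53 at 7 days. The most abundant were Ctsw, a cathepsin of cytotoxic cells (0.10), and Klrk1, the receptor NKG2D (1.03, adjusted p = 0.0319, limma). Of 8 inhibitory receptor and exhaustion genes tested 2 were called higher. These were Havcr2, which encodes TIM-3 (2.32, SE 0.30, adjusted p = 8.59e-05, limma), and Entpd1, which encodes the ectonucleotidase CD39 (2.47, SE 0.24, adjusted p = 1.17e-05, limma), and neither is particular to T cells: myeloid cells carry both. The median of the list was -0.29. Tigit (-0.36) and Cd274, which encodes the ligand PD-L1 (-0.22), were its most abundant genes with no call.

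Of 23 B cell genes tested 6 were called higher at 7 days against control and 8 against 3 days, with medians of 0.43 and 0.58, and 0 were called lower. The largest rises were of Cd72, a B cell co-receptor (2.78, SE 0.39), Btk, the kinase downstream of the receptor (2.63, SE 0.29), and Cd37, a tetraspanin (2.55, SE 0.34), with adjusted p of 0.000153, 3.21e-05 and 0.000115 (limma). Btk and Cd37 are also used by myeloid cells, and exons of Cd37 and Cd72 overlap those of Tead2 and Tesk1 on the other strand, which unstranded counting does not separate. The most abundant genes with no call were Cd22, an inhibitory lectin (0.60, adjusted p = 0.109, limma), and Blnk, an adaptor of the receptor (0.02). Of 4 plasma cell genes tested only Irf4, a transcription factor, was called (1.27, SE 0.26, adjusted p = 0.00238, limma). Derl3 (0.38) and Prdm1 (0.15) were the most abundant of the others.

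Genes shared by all leukocytes had the highest median of the lists at 7 days, 2.10. Of 14 tested, 12 were called higher, led by Itgb2 (3.27), Itgal (2.91) and Laptm5 (2.77). Itgb2, the integrin beta chain of leukocytes, stood at 2.86 to 6.00 eRPKM in controls and 37.4 to 50.1 at 7 days (adjusted p = 1.34e-05, limma). Cd52 (1.67, adjusted p = 0.0173, limma) and Cd48 (1.30, adjusted p = 0.0822, limma), surface proteins of lymphocytes and other leukocytes, were the ones with no call. Exons of Cd52 overlap those of Aim1l on the other strand. Seven-day liver 2 was the highest of its group for 16 of the 19 T cell genes and 18 of the 23 B cell genes, and for 3 of the 14 pan-leukocyte genes. Among the lymphocyte chemokines, Cxcl9, an interferon-induced T cell attractant, fell by 2.10 (SE 0.49, adjusted p = 0.00515, limma). S1pr1 (0.16), which guides lymphocyte exit and is abundant on endothelium, and Cxcl16 (1.13, adjusted p = 0.0162, limma) were not called. Exons of Cxcl16 overlap those of Zmynd15 on the other strand. At 3 days 0 genes of any of these 7 lists were called. Among the other cell types, 2 of 6 neutrophil genes, 3 of 9 endothelial and 1 of 5 cholangiocyte genes were called higher at 7 days, and 3 of 8 hepatocyte, 2 of 8 stellate cell and 1 of 3 erythroid genes lower.

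**Figure D4:**
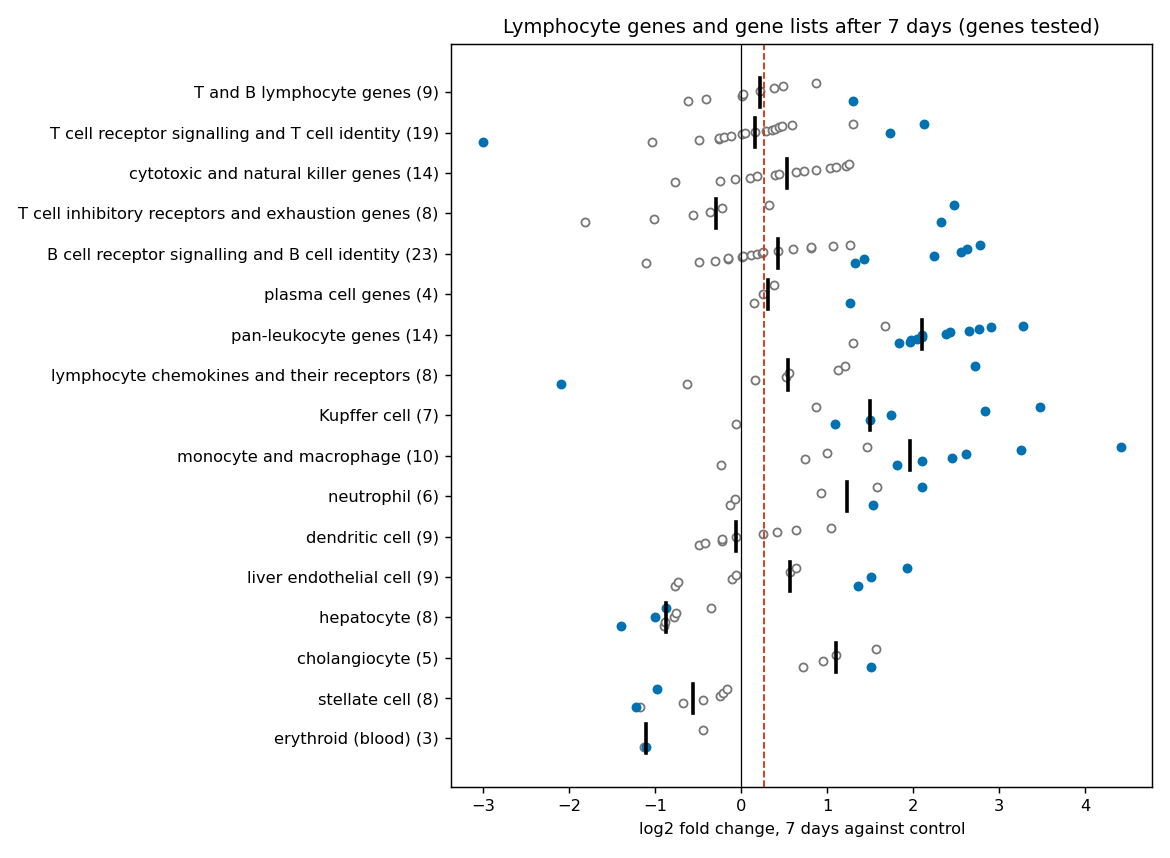
Log2 fold change at 7 days against control (x axis) of every gene tested in the 9-gene set, the other lymphocyte lists and the cell type lists, with filled points for calls, black bars for list medians and a red dashed line for the median of all genes tested, 0.26. The 9 genes centre at 0.21, while the pan-leukocyte genes centre at 2.10 and the monocyte and macrophage genes at 1.96.

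Over the 11 livers, after the mean of each group was subtracted, the genes most like the mean of Cd3d, Cd3e and Cd3g were Kansl1 (Pearson r = 0.97), Mycbp2 (0.96), Adra1a (0.96), Ccdc138 (0.96) and Gja6 (0.95). The median r was 0.68 over the 19 T cell genes and 0.34 over all 14235 genes that were not members. For the mean of Cd79a, Cd79b and Ms4a1 the closest were Ppm1e (0.91), Nfkbil1 (0.91), 2310015A10Rik (0.91), Ythdf1 (0.91) and Prlh (0.90), with a median of 0.40 over the 23 B cell genes and 0.17 over all. These are descriptions over 11 libraries that share their depth and scaling with every gene in them. None of the closest genes belongs to a T or B cell list used here, and Prlh had at most 2 reads in any liver.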

How the data were processed

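Livers were grouped by their labels, 1 library per liver. The limma p-values set a group difference against the spread between livers, pooled over the groups and drawn toward a trend over all genes tested. The authors sequenced TruSeq libraries in read pairs and aligned them to mm9 with TopHat2 2.0.8 without strand information. The submitters' processing notes also name featureCounts 1.4.5-p1, SAMtools and DESeq2; the annotation is not given in the sources used here. Each liver's deposited column gives eRPKM, an exonic RPKM scaled by the authors. Further deposited columns (a mean signal, a log2 fold change and a p-value after adjustment) come from the authors' own DESeq2 run of 7 days against control and were not used.

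The test was limma-trend (limma 3.58.1 in R 4.3.3) of log2(eRPKM + 0.5), over genes that reached 0.5 eRPKM in 3 or more libraries, with thresholds of 0.01 and 0.5 as in the study. The plan named a count test for counts; the table holds none. Reads were recovered from value steps, and 177553 of 177553 values above 0 lay within 0.1 of a whole read. The step of each gene was chosen so that its values came out whole, so this share is a weak check, above all for genes with few values above 0. A shared divisor in genes with few values above 0 can make the recovered depth slightly low. Exact two-sided permutation tests were run for every member and comparison (27 in all, raw p), and exact Poisson 95% intervals were set on reads. The limma step was tested on simulated data, in which only genes with more reads on average than any member were changed. It therefore does not show whether changes at the members' read counts would be called. Members, lists and tests were chosen with earlier results of these data known. Other genes were named by a rule: from each lymphocyte list, at most 3 called rises and 3 called falls at 7 days with the largest fold change and the 2 most abundant genes with no call. A gene that this rule names is not reported here. Alternatives were median-ratio size factors and quantile normalization, other pseudocounts (0.1 and 1), the filter dropped or set at a mean of 1 eRPKM, fits of only the 2 groups compared, a block for the replicate number, covariates (log2 Xist, log2 depth, the suffix MF), female livers only, limma-voom on recovered reads, an adjusted p under 0.05 and each liver left out in turn. Leaving out both control liver 4 and 7-day liver 2 was chosen after seeing the data. Tables, tests over livers and figures used Python 3.11.15 with scipy 1.17.1, pandas 2.3.3, matplotlib 3.10.9 and numpy 2.4.6.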

Additional observations from a re-analysis of the deposited data

Results flagged for a closer look

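Cd8b1 at 3 days was marked because 1 liver, at 0.372 eRPKM, stood apart from 3 livers at 0 (the gap was the whole range, a ratio of 1, above the 95% critical value of 0.829 for 4 livers). With 3 livers at 0 any value above 0 gives that ratio, and this value rested on 2 reads. The CD3 chains at 3 days were marked in the same way, with liver 3 at 5.98 RPM (reads per 1000000 reads on genes) above the other three (0.834). The CD79 chains in controls were marked for liver 1 at 6.67 RPM (0.911). These are 3 of 22 sets of 4 livers examined, where chance marks about 1 in 20. That rate does not hold for sets with tied zeros, such as Cd8b1. The CD3 and CD79 intervals of these livers overlap with those of other livers in their group.

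Cd4 was marked because its fold change against control differed between 3 and 7 days, by 1.24 on the log2 scale (adjusted p = 0.00644, limma).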

How the results depend on the processing

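The rise of Cd4 at 7 days kept its direction in every alternative run. The count of members called at 7 days against control went from 1 to 0 with a pseudocount of 0.1, median-ratio size factors, the replicate number as a block, log2 depth as a covariate, female livers only, and both control liver 4 and 7-day liver 2 left out. It stayed at 1 with quantile normalization, where the call was Cd3d. Leaving out single livers gave 0 to 1. At 7 days against 3 days the count went to 0 in the same 6 settings and with no filter, quantile normalization and the 2 compared groups only. Leaving out single livers gave 0 to 2, and an adjusted p under 0.05 at any fold change gave 4. At 3 days it was 0 throughout. With a mean of at least 1 eRPKM, where fewer members could be tested, the median of the members was -0.85 at 3 days, 0.54 at 7 days and 1.29 between them. It was -0.95 at 3 days with limma-voom, -0.31 at 7 days and -0.064 at 7 days against 3 days with quantile normalization, -0.24 at 7 days with both livers left out, and 0.088 at 7 days against 3 days with log2 depth. The replicate numbers do not pair the livers: of 10 same-numbered pairs 2 correlated above 0.1 (-0.22 to 0.27). The block therefore stands only as an alternative.

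Members with no call changed sign in some settings. At 7 days against 3 days Cd3d was -0.066 with size factors, -0.45 with quantile normalization, -0.0099 with the block, -0.28 with both livers left out and -0.28 to 0.32 without single livers. Cd3e there was -0.30 with quantile normalization, -0.033 with the block, -0.080 with Xist, -0.63 with depth, -0.35 in females, -0.21 with both left out and -0.21 to 0.47 without single livers. At 7 days against control Cd3e was -0.024 with a pseudocount of 1, -0.079 with size factors, -0.40 with quantile normalization, -0.17 with the block, -0.20 with Xist, -0.048 with MF, -1.04 with depth, -0.18 in females, -0.39 with voom, -0.73 with both left out and -0.37 to 0.32 without single livers. At 3 days Cd3e was 0.026 with a pseudocount of 0.1, 0.17 in females and -0.52 to 0.17 without single livers. Cd3g was -0.56 at 3 days and -0.40 at 7 days in females, -0.040 at 3 days with both left out and -0.040 to 0.64 without single livers. Against 3 days Cd3g was -0.26 with quantile normalization, -0.16 with Xist and -0.054 with depth. Cd4 at 3 days was -0.12 in females, -0.055 with voom and -0.070 to 0.28 without single livers. Cd8a at 3 days was 0.17 with a pseudocount of 0.1, 0.052 with quantile normalization and -0.41 to 0.21 without single livers. At 7 days it was -0.012 with quantile normalization, -0.085 with depth, -0.092 in females and -0.24 with both left out, and against 3 days -0.064 with quantile normalization. Cd8b1 at 7 days was -0.056 with a pseudocount of 0.1, -0.14 with size factors, -0.31 with quantile normalization, -0.033 with the block, -0.054 with Xist, -0.034 with MF, -0.066 with depth, -0.18 with voom, -0.31 with both left out and -0.30 to 0.27 without single livers. Cd79a at 7 days was -0.33 with quantile normalization and -0.080 to 0.39 without single livers. Ms4a1 against 3 days was -0.083 with size factors, -0.50 with quantile normalization, -0.073 with the block, -0.21 with depth, -0.069 with both left out and -0.086 to 0.21 without single livers. The cause was not tested. Of the 99 member values 34 rest on 3 reads or fewer, none of them of Cd3d.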
